A study of Mus musculus with 8 samples.

Results

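The Wnt pathway genes described here are the 61 rows of the deposited gene table, of 17922 in all, whose symbol names a Wnt ligand, an R-spondin, a receptor, a secreted inhibitor, a signal transducer, a TCF/LEF factor or a feedback target of the pathway. The rule that selects them reads the symbol and no measured value, although it was written with earlier results of these data known, and each symbol stood on 1 row. All 61 identifiers carry the same symbol in the reference table of gene names. That reference holds 66 protein-coding genes with matching symbols, and the other 5 (Sp5, Wnt3, Wnt3a, Wnt8b and Wnt9b) were not analysed here.

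In canonical Wnt signalling a secreted, lipid-modified Wnt protein binds a Frizzled receptor and an LRP5 or LRP6 co-receptor, which keeps a destruction complex of Axin, APC, casein kinase and GSK3 from marking β-catenin for degradation. β-catenin then accumulates, enters the nucleus and acts with TCF/LEF factors, and some of the genes it activates, such as Axin2, Rnf43 and Znrf3, encode negative feedback regulators. CHIR99021 inhibits GSK3 itself and so stabilises β-catenin downstream of ligand and receptor. It is widely used in media for mouse pluripotent cells, where stabilised β-catenin relieves repression by Tcf7l1.

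The libraries follow mouse embryonic fibroblasts (MEFs) on the way to induced pluripotent stem cells (iPSCs), with 1 long RNA library at each of 4 stages and cells of strain C57BL/6 throughout. The MEFs came from 13.5-day fetuses of a tetO-OSKM mouse, in which doxycycline induces the reprogramming factors Pou5f1, Sox2, Klf4 and Myc, and were taken before induction (day 0). Induced cells were taken on day 3 and day 6 under 2 µg/ml doxycycline, and the iPSCs were fully reprogrammed cells made from the MEFs. The reprogramming medium held serum replacement, LIF and 3 µM CHIR99021, per the labels' protocols. The sources used here give no medium for the MEFs before induction or for the iPSCs at harvest. Effects of the GSK3 inhibitor, the induced factors, the medium and time in culture cannot be told apart, since no induced library without the inhibitor was analysed here. The libraries are bulk RNA, in which fewer cells of a type and less RNA per cell cannot be told apart.

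Levels are in FPKM (fragments scaled to the length of the gene and to the fragments of the library), so levels of different genes can be set side by side. Differences are of log2(FPKM + 1), a scale that understates differences of weakly expressed genes. With 1 library a stage, no test was made and no error can be given. A gene is called higher or lower where the difference was at least 1 and the higher of the values at least 1 FPKM, and the genes compared are those that reach 1 FPKM in either library. As a check of the labels, 7 fibroblast markers summed to 6593 FPKM in MEFs, 6379.7 on day 3, 6742 on day 6 and 195 in iPSCs, and 7 pluripotency markers to 0.846 FPKM in MEFs, 3.53 on day 3, 9.13 on day 6 and 1592 in iPSCs. Before the iPSC stage the second sum followed Pou5f1, an induced factor, at 0.226 FPKM in MEFs, 3.03 on day 3, 8.56 on day 6 and 739.7 in iPSCs, and the other 6 markers were each at most at 0.398 FPKM in MEFs, on day 3 and on day 6. Sequencing depth is not stated. The smallest values put the fragments of the day 3 library at 0.637 of those in MEFs, with 1.04 for day 6 and 1.01 for iPSCs, which makes low levels least precise on day 3.

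Of the 61 members, 27 were at 1 FPKM or more in all 4 libraries, 49 reached it in at least 1 library and 12 in none. These 12 were the ligand genes Wnt1, Wnt2, Wnt2b, Wnt8a and Wnt10b, the R-spondin gene Rspo4, and the inhibitor genes Dkk1, Dkk2, Dkk4, Sfrp4, Sfrp5 and Wif1. The number of members at 1 FPKM or more was 38 in MEFs, 37 on day 3, 41 on day 6 and 38 in iPSCs. The number at 5 FPKM or more was 25 in MEFs, 26 on day 3, 25 on day 6 and 15 in iPSCs. As many members were thus detected at 1 FPKM in iPSCs as in MEFs, with fewer of them at 5 FPKM or more. All rows were not counted at 5 FPKM, and their upper quartile was 18.3 FPKM in MEFs and 16.2 in iPSCs.

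**Figure D1:**
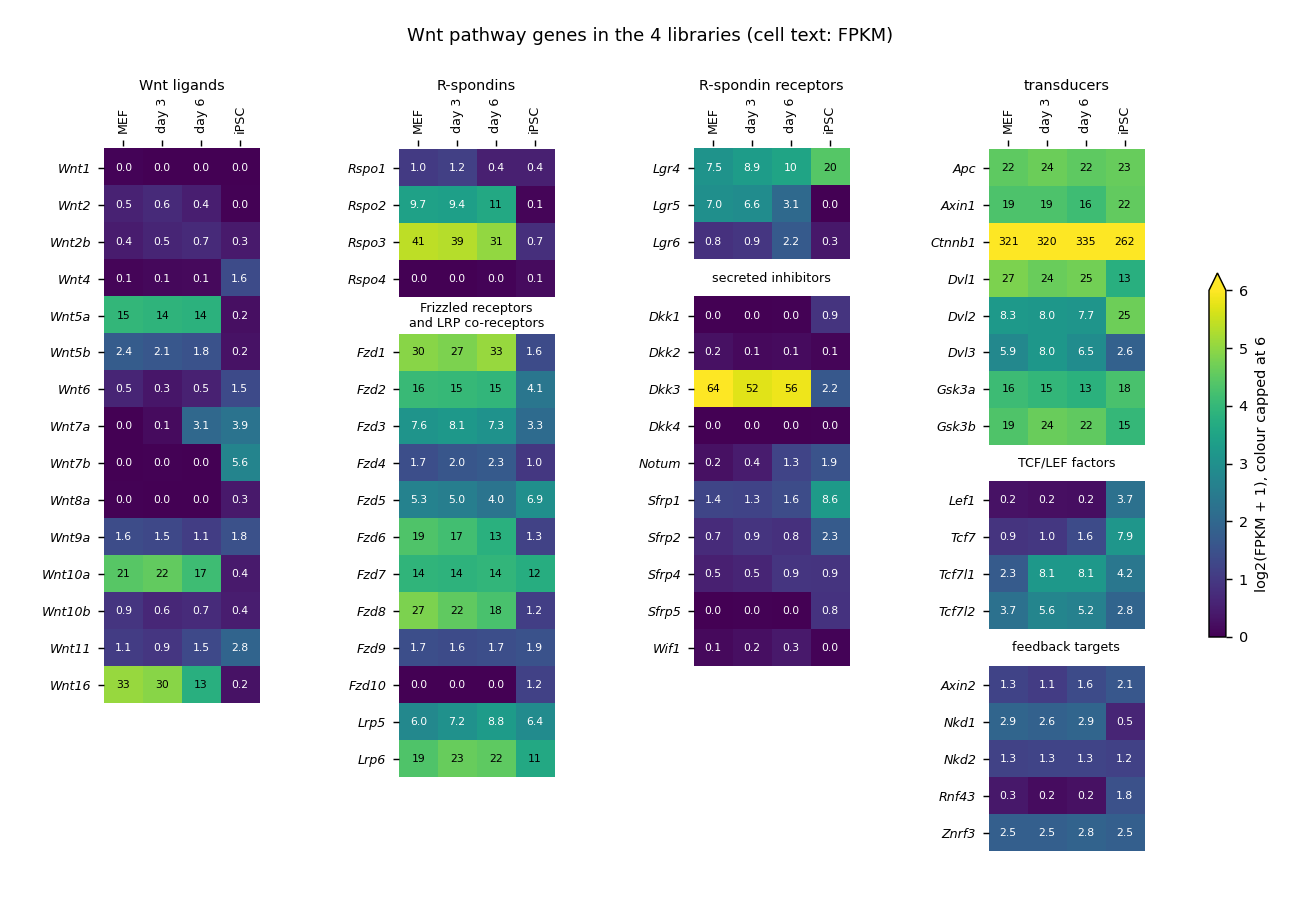
Level of every member in each library. Rows are genes grouped by role, columns are the MEF, day 3, day 6 and iPSC libraries, and colour and cell text give the level. Wnt16, Wnt10a, Wnt5a, Rspo2, Rspo3, Dkk3, Fzd1, Fzd6 and Fzd8 are high in the first 3 columns and low in iPSCs, whereas Tcf7l1 is highest on day 3 and day 6.

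Between MEFs, day 3 and day 6, 3 members passed the rule of size and 58 did not. On day 3 against MEFs 1 of 38 members compared was higher, the transcription factor gene Tcf7l1, and 0 were lower, where 0.17% of all 11740 rows were higher and 0.0511% lower. On day 6 against MEFs 2 of 42 members were higher, Tcf7l1 and the ligand gene Wnt7a, and 1 was lower, the ligand gene Wnt16, where 0.77% of all rows were higher and 0.584% lower. On day 6 against day 3 Wnt7a was higher and Wnt16 lower among 42 members compared, where 0.457% of all rows were higher and 0.398% lower. All 5 comparisons made here share libraries and are not independent of each other. The median difference of the members was -0.05 for day 3 against MEFs, 0.01 for day 6 against MEFs and -0.02 for day 6 against day 3, beside -0.02, -0.02 and -0.01 over all rows compared.

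Tcf7l1 (ENSMUSG00000055799) encodes the TCF family member that acts mainly as a repressor of pluripotency genes in mouse embryonic stem cells. It was at 2.28 FPKM in MEFs, 8.12 on day 3, 8.15 on day 6 and 4.21 in iPSCs. Both induced libraries lay above both end stages and were alike. The FPKM on day 3 was 3.56 times that in MEFs, a difference of 1.48 that ranked 11 from the highest of 11740 rows. The difference of iPSCs against day 6, -0.81, did not pass the rule. Its annotated span overlaps that of Gm15401, a row at most at 0.389 FPKM.

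Wnt7a (ENSMUSG00000030093), a ligand gene, was listed at 0 in MEFs and stood at 0.129 FPKM on day 3, 3.07 on day 6 and 3.89 in iPSCs. The day 6 library was near the iPSCs and well above day 3. The difference of day 6 against day 3 was 1.85, which ranked 9 from the highest of 11817 rows. No fold against MEFs is given, because a listed 0 may also be an estimate that failed. Its close paralog Wnt7b was at 0.00499 FPKM in MEFs, 0.0217 on day 3, 0.0135 on day 6 and 5.58 in iPSCs, with iPSCs alone above 1 FPKM.

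Wnt16 (ENSMUSG00000029671), a ligand gene known from bone and joint tissue, was at 32.6 FPKM in MEFs, 29.6 on day 3, 12.7 on day 6 and 0.223 in iPSCs. Day 3 was close to MEFs, day 6 lay below both, and iPSCs lay lowest. The difference of day 6 against MEFs was -1.29, which ranked 21 from the lowest of 11816 rows, and that of day 6 against day 3 was -1.15.

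A further 3 genes came closest to the rule on day 6 against MEFs without passing it, and were singled out after their values were seen. Lgr5, an R-spondin receptor gene that marks intestinal stem cells, was at 3.11 FPKM on day 6 against 6.99 in MEFs, a difference of -0.96. Notum, whose secreted enzyme removes the lipid from Wnt proteins, was at 1.34 FPKM on day 6 against 0.200 in MEFs, a difference of 0.96. Lgr6 was at 2.24 FPKM on day 6 against 0.805 in MEFs, a difference of 0.84. With a pseudocount of 0.1 in place of 1, these 3 and the R-spondin gene Rspo1 (0.442 FPKM on day 6 and 1.03 in MEFs) passed the rule as well. With a pseudocount of 5 the calls of Tcf7l1 against MEFs (0.85 on day 3 and 0.85 on day 6), of Wnt7a (0.69 on day 6 against MEFs and 0.65 against day 3) and of Wnt16 on day 6 against day 3 (-0.96) were lost, and Wnt16 on day 6 against MEFs kept its call (-1.08).

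**Figure D2:**
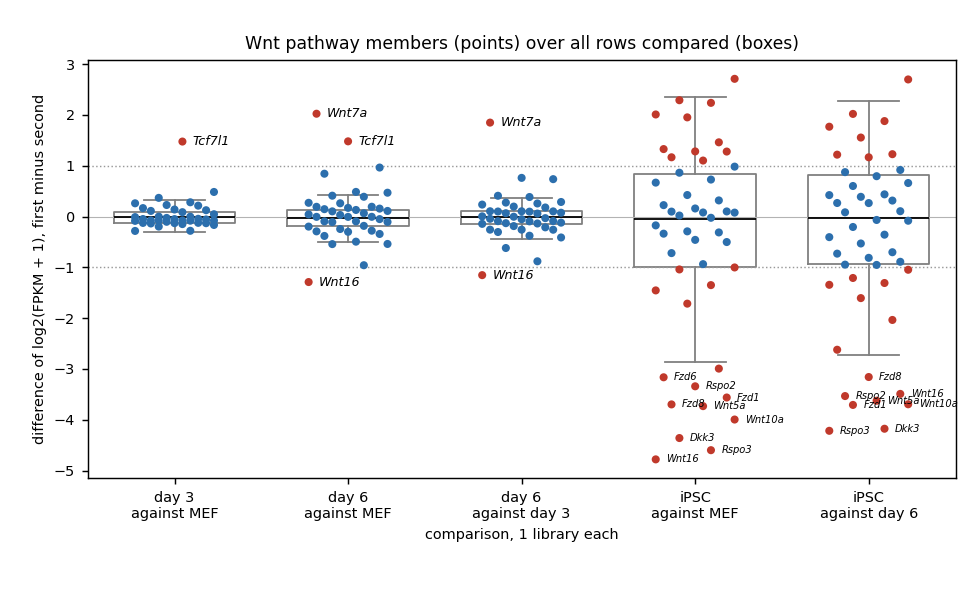
Differences of log2(FPKM + 1), first library minus second, for 5 comparisons. Points are members compared, the boxes describe all rows compared, and dotted lines mark the rule. Without iPSCs the points beyond the lines are Tcf7l1, Wnt7a and Wnt16, and in iPSCs against MEFs 11 points lie above the lines and 15 below.

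Promoters are shown for the 3 members that passed the rule before the iPSC stage, for Axin2, the feedback gene most often used as a readout of the pathway, and for Lef1 and Wnt5b, 2 members called in iPSCs with a TCF/LEF core in 1 of their annotated promoters. For Lef1 1 of 4 windows held the core and for Wnt5b 1 of 3, and the window that held it is shown. The sequences are from RefSeq, build GRCm38.p6, matched by symbol, and cover 250 bases before an annotated start, 5′ to 3′ on the strand of the gene. The submitters' processing notes name mm9 for the deposited values, so the coordinates belong to the sequences alone. Capitals mark a TCF/LEF core, searched on both strands as CTTTG followed by AA, AT, TA or TT.
Tcf7l1, chr6:72789046-72789295, minus strand: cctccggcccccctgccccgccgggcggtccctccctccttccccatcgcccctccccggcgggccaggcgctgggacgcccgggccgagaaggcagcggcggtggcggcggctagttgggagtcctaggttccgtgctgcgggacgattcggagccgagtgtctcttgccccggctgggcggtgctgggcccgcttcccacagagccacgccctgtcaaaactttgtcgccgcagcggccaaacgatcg
Wnt7a, chr6:91411354-91411603, minus strand: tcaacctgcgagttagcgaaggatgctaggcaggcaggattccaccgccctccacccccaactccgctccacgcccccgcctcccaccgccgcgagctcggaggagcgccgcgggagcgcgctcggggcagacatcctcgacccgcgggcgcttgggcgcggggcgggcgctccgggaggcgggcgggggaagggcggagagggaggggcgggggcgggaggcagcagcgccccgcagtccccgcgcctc
Wnt16, chr6:22287977-22288226, plus strand: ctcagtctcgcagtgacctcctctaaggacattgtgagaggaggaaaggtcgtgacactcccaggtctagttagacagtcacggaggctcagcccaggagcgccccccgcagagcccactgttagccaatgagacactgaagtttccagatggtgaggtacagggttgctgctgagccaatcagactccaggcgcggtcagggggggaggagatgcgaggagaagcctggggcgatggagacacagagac
Axin2, chr11:108920099-108920348, plus strand: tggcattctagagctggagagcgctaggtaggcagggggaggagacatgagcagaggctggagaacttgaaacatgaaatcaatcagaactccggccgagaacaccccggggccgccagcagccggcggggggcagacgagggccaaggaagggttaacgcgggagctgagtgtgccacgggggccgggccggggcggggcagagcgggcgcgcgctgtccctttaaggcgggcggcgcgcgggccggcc
Lef1, chr3:131156044-131156293, plus strand: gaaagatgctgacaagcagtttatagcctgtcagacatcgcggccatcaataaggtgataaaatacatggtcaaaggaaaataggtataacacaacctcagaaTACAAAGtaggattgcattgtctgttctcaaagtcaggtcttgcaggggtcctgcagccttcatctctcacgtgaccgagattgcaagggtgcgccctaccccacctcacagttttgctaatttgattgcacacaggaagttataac
Wnt5b, chr6:119449387-119449636, minus strand: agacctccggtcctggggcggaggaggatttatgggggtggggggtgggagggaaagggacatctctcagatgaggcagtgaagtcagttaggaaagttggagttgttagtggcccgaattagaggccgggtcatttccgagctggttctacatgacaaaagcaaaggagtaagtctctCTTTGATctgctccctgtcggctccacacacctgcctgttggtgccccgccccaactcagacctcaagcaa
The windows of Tcf7l1, Wnt7a, Wnt16 and Axin2 held 0 matches, which says only that these letters are not there. The Lef1 window held TACAAAG from base 104, on the other strand, and the Wnt5b window held CTTTGAT from base 180. Of 50 windows from the 40 members with an entry, 7 (14%) held a match, beside 4874 of 32851 windows (14.8%) over all genes. Dkk1, Fzd7, Gsk3a, Tcf7l2 and Wnt11 had the other windows with a match. The median GC content was 65.8% for member windows and 52.4% for all windows, and the median number of CpG dinucleotides 16.5 and 6. The Tcf7l1 window (73.6%, 29 CpG) and the Wnt7a window (77.6%, 34 CpG) lay above the member medians and the Wnt16 window (59.2%, 9 CpG) below.

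In iPSCs against MEFs, 11 of 48 members compared were higher and 15 lower, where 21.1% of all 12937 rows were higher and 25% lower. The members' shares were 22.9% and 31.2%. The members higher in iPSCs were Wnt4, Wnt7a, Wnt7b, Fzd10, Lgr4, Sfrp1, Notum, Dvl2, Tcf7, Lef1 and Rnf43. In iPSCs against day 6, 8 of these 11 were higher (all but Wnt7a, Lgr4 and Notum) and 15 members lower of 48 compared, where 20.4% of all rows were higher and 23.4% lower. The median difference of iPSCs against MEFs was -0.0018 for members and -0.05 for all rows, and that of iPSCs against day 6 was -0.28 and -0.02. The counts lay near those of the whole table, and the members that were higher or lower came from all 8 roles. Some calls against MEFs were lost both with a pseudocount of 5 and with a minimum of 5 FPKM. These were the higher calls of Wnt4, Wnt7a, Fzd10, Notum, Lef1 and Rnf43 and the lower calls of Wnt5b and Nkd1.

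TCF/LEF factors, the DNA-binding partners of β-catenin, differed in make-up between stages. Their summed level was 7.11 FPKM in MEFs, 14.9 on day 3, 15.1 on day 6 and 18.6 in iPSCs. Tcf7l2 held the largest share of the sum in MEFs (52.3%), Tcf7l1 on day 3 (54.6%) and day 6 (53.9%), and Tcf7 in iPSCs (42.3%). Tcf7l2 itself was at 3.72 FPKM in MEFs, 5.602 on day 3, 5.18 on day 6 and 2.80 in iPSCs, within the rule in every comparison.

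Tcf7 and Lef1, which are mostly known as activators and as targets of the pathway, were highest in iPSCs. Tcf7 was at 0.883 FPKM in MEFs, 0.964 on day 3, 1.61 on day 6 and 7.88 in iPSCs. Lef1 was at 0.226 FPKM in MEFs, 0.179 on day 3, 0.170 on day 6 and 3.75 in iPSCs. For both genes iPSCs stood above the other 3 libraries, by 2.24 and 1.95 against MEFs and by 1.77 and 2.02 against day 6. Both calls of Lef1 were lost with a pseudocount of 5 and with a minimum of 5 FPKM. That of Tcf7 against day 6 was lost with a pseudocount of 5. The annotated span of Tcf7 overlaps that of Skp1, for which no level was matched. Values per gene do not separate isoforms, and both genes are known to make short forms that do not bind β-catenin.

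Wnt ligand genes encode the secreted proteins that start the signal, and 15 have a row. Their summed level was 75.4 FPKM in MEFs, 72.7 on day 3, 52.8 on day 6 and 19.3 in iPSCs. In MEFs Wnt16 (43.2%), Wnt10a (27.4%) and Wnt5a (19.5%) made up most of it. In iPSCs Wnt7b (28.9%), Wnt7a (20.2%) and Wnt11 (14.6%) held the largest shares. Of 10 ligand genes compared in iPSCs against MEFs, 3 were higher (Wnt4, Wnt7a and Wnt7b) and 4 lower (Wnt5a, Wnt5b, Wnt10a and Wnt16). Over all rows 21.1% were higher and 25% lower.

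Wnt10a, which acts in tooth and hair development, was at 20.7 FPKM in MEFs, 22.4 on day 3, 16.6 on day 6 and 0.358 in iPSCs. Wnt5a, a main ligand of signalling without β-catenin, was at 14.7 FPKM in MEFs, 13.9 on day 3, 13.6 on day 6 and 0.182 in iPSCs, and its paralog Wnt5b was at 2.36 FPKM in MEFs, 2.09 on day 3, 1.84 on day 6 and 0.229 in iPSCs. All 3 were alike in MEFs and induced cells and low in iPSCs, with differences of -3.99, -3.73 and -1.45 against MEFs. The Wnt5b span overlaps that of Fbxl14, a row at 7.39 FPKM in iPSCs and 6.25 FPKM in MEFs. Wnt4 was at 0.0654 FPKM in MEFs, 0.0862 on day 3, 0.106 on day 6 and 1.59 in iPSCs. Wnt11, at 1.10 FPKM in MEFs, 0.926 on day 3, 1.51 on day 6 and 2.82 in iPSCs, and Wnt6, at 0.527 FPKM in MEFs, 0.283 on day 3, 0.458 on day 6 and 1.53 in iPSCs, were highest in iPSCs and within the rule. Wnt9a lay between 1.14 and 1.81 FPKM in all 4 libraries.

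R-spondins, secreted proteins that strengthen Wnt signals by keeping Frizzled receptors at the cell surface, were low in iPSCs. Their sum was 52.1 FPKM in MEFs, 49.7 on day 3, 43.2 on day 6 and 1.36 in iPSCs. Rspo3 was at 41.3 FPKM in MEFs, 39.1 on day 3, 31.5 on day 6 and 0.748 in iPSCs, and Rspo2 at 9.74 FPKM in MEFs, 9.42 on day 3, 11.3 on day 6 and 0.0602 in iPSCs. Both were lower in iPSCs, with differences of -4.60 and -3.34 against MEFs. Rspo1 was at 1.03 FPKM in MEFs, 1.21 on day 3, 0.442 on day 6 and 0.434 in iPSCs, within the rule where it was compared.

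R-spondin receptors differed in make-up between stages. Lgr4, the broadly expressed receptor gene, was at 7.53 FPKM in MEFs, 8.90 on day 3, 10.3 on day 6 and 20.4 in iPSCs, each stage above the one before. Lgr5 was at 6.99 FPKM in MEFs, 6.57 on day 3, 3.11 on day 6 and 0.00392 in iPSCs, in the opposite order. Lgr4 held 49.1% in MEFs, 54.2% on day 3, 65.9% on day 6 and 98.5% in iPSCs of the summed level of the 3 genes, and Lgr5 held 45.6% in MEFs, 40.0% on day 3, 19.8% on day 6 and 0.0189% in iPSCs. In iPSCs against MEFs Lgr4 was higher (1.33) and Lgr5 lower (-2.99). Lgr6 was at 0.805 FPKM in MEFs, 0.944 on day 3, 2.24 on day 6 and 0.308 in iPSCs, highest on day 6, and was lower in iPSCs than on day 6 (-1.31).

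Frizzled genes, which encode the Wnt receptors, had a summed level of 122 FPKM in MEFs, 112 on day 3, 108 on day 6 and 34.8 in iPSCs. Fzd1 was at 29.6 FPKM in MEFs, 27.0 on day 3, 32.9 on day 6 and 1.59 in iPSCs. Fzd8 was at 27.1 FPKM in MEFs, 22.1 on day 3, 18.3 on day 6 and 1.17 in iPSCs, and Fzd6 at 19.4 FPKM in MEFs, 17.2 on day 3, 13.02 on day 6 and 1.28 in iPSCs. These were the most abundant Frizzled genes in MEFs, and all 3 were lower in iPSCs, with differences of -3.56, -3.70 and -3.16 against MEFs. Fzd2 was at 15.8 FPKM in MEFs, 15.1 on day 3, 14.5 on day 6 and 4.11 in iPSCs, and Fzd3 at 7.59 FPKM in MEFs, 8.12 on day 3, 7.29 on day 6 and 3.29 in iPSCs. Both were lower in iPSCs than in MEFs, although Fzd3 only just passed the rule and did not pass it under any of 3 rescalings of the libraries.

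Fzd7, a receptor gene known from human embryonic stem cells, was at 14.1 FPKM in MEFs, 13.8 on day 3, 14.4 on day 6 and 12.4 in iPSCs, close in all 4 libraries. Its share of the Frizzled sum was 35.6% in iPSCs and 11.5% in MEFs. Fzd5 was at 5.33 FPKM in MEFs, 4.97 on day 3, 3.99 on day 6 and 6.89 in iPSCs, within the rule, with 19.8% of the sum in iPSCs and 4.36% in MEFs. Fzd7, Fzd5 and Fzd2 were the most abundant Frizzled genes in iPSCs. Fzd10 was at or near 0 in the other libraries and at 1.24 FPKM in iPSCs, and it was the Frizzled gene called higher. Fzd4 (0.964 to 2.26 FPKM) and Fzd9 (1.57 to 1.87 FPKM) stayed low. The co-receptor genes were within the rule, with Lrp6 at 19.3 FPKM in MEFs, 23.4 on day 3, 21.9 on day 6 and 11.4 in iPSCs and Lrp5 at 6.00 FPKM in MEFs, 7.20 on day 3, 8.798 on day 6 and 6.40 in iPSCs.

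**Figure D3:**
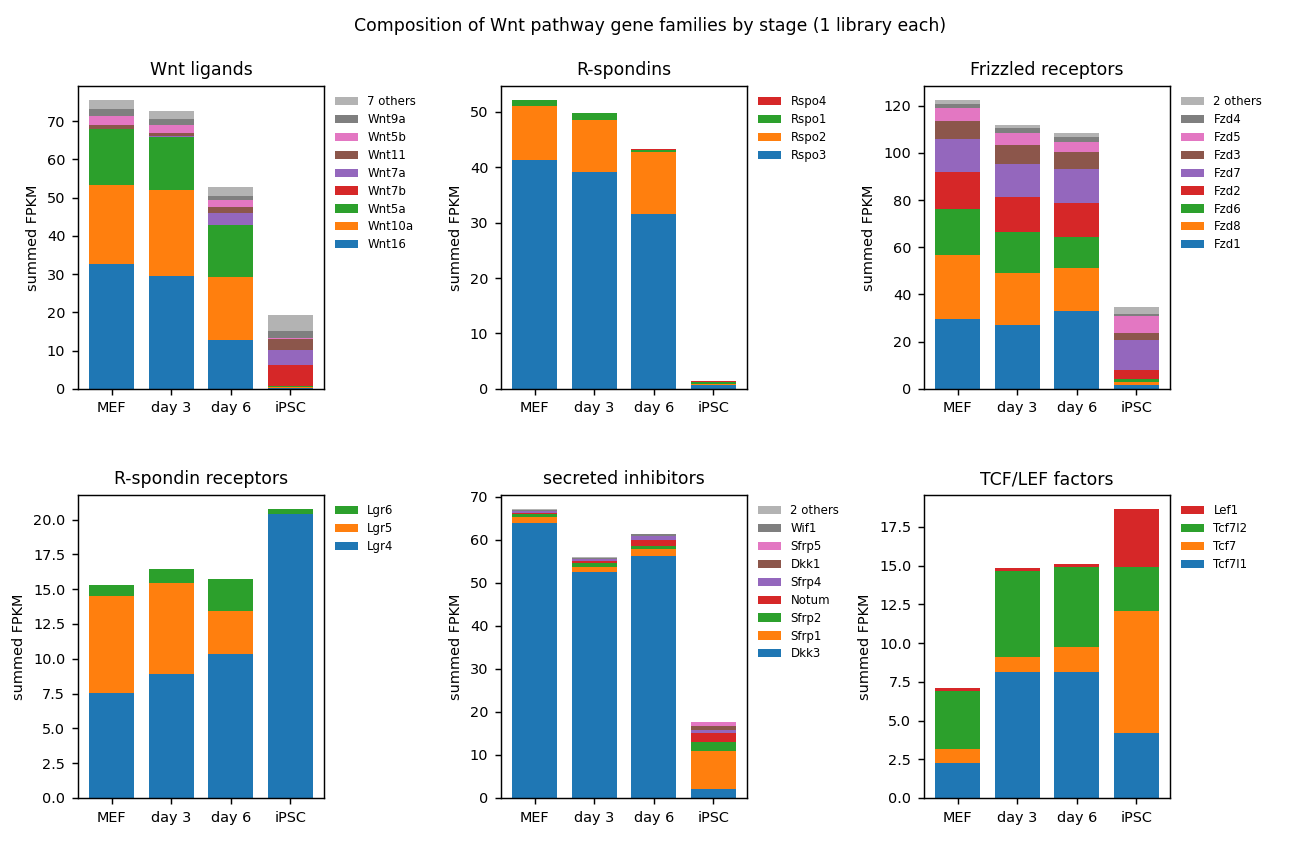
Summed FPKM of gene families in the MEF, day 3, day 6 and iPSC libraries, 1 library each, stacked by gene. The ligand sum is 75.4 FPKM in MEFs and 19.3 in iPSCs with other genes making it up, R-spondins are at 1.36 FPKM in iPSCs, and Tcf7l1 is the largest TCF/LEF segment on day 3 and day 6.

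Among secreted inhibitors Dkk3 led in MEFs and induced cells. Dkk3, a divergent Dickkopf gene whose protein is not an established LRP antagonist, was at 64.0 FPKM in MEFs, 52.4 on day 3, 56.2 on day 6 and 2.17 in iPSCs. It held 95.4% in MEFs, 93.8% on day 3, 91.7% on day 6 and 12.3% in iPSCs of the summed level of 10 inhibitor genes. Sfrp1, which encodes a decoy for Wnt proteins related to Frizzled, was at 1.39 FPKM in MEFs, 1.31 on day 3, 1.62 on day 6 and 8.63 in iPSCs and held 48.9% of the sum in iPSCs. Of 4 inhibitor genes compared in iPSCs against MEFs, 2 were higher (Sfrp1 by 2.01 and Notum by 1.28) and 1 lower (Dkk3, -4.36). The shares of all rows were 21.1% higher and 25% lower. Sfrp2 was at 0.661 FPKM in MEFs, 0.870 on day 3, 0.791 on day 6 and 2.28 in iPSCs, and its difference of 0.98 passed the rule under each of 3 rescalings. Dkk1, the classical LRP antagonist, reached 0.864 FPKM in iPSCs and at most 0.0201 in the others.

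Of the 8 transducers inside the cell, 1 was called higher and 1 lower for iPSCs against MEFs, beside 21.1% and 25% of all rows. Ctnnb1, the gene of β-catenin and the most abundant member, was at 321 FPKM in MEFs, 320.4 on day 3, 335 on day 6 and 262 in iPSCs. The scaffold genes of the destruction complex lay between 21.6 and 24.0 FPKM for Apc and between 16.5 and 22.4 for Axin1 over the 4 libraries. Of the genes for GSK3, the kinase that CHIR99021 inhibits, Gsk3a was at 16.4 FPKM in MEFs, 14.7 on day 3, 13.3 on day 6 and 18.4 in iPSCs, and Gsk3b at 19.3 FPKM in MEFs, 23.6 on day 3, 22.2 on day 6 and 15.1 in iPSCs. Both were within the rule in every comparison. RNA levels measure neither β-catenin protein nor GSK3 activity.

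Dishevelled genes, which encode the adaptors below Frizzled, summed to 41.4 FPKM in MEFs, 39.5 on day 3, 39.6 on day 6 and 39.9 in iPSCs. Within that near-equal sum Dvl2 was at 8.29 FPKM in MEFs, 7.97 on day 3, 7.70 on day 6 and 24.6 in iPSCs, and Dvl1 at 27.2 FPKM in MEFs, 23.6 on day 3, 25.4 on day 6 and 12.7 in iPSCs. Dvl2 held 61.6% of the sum in iPSCs and 20.0% in MEFs, and Dvl1 held 31.8% in iPSCs and 65.6% in MEFs. Dvl2 was higher in iPSCs than in MEFs by 1.46. Dvl1 was lower (-1.04), but not past the rule under any of 3 rescalings. Dvl3 was at 5.95 FPKM in MEFs, 7.97 on day 3, 6.502 on day 6 and 2.63 in iPSCs, lower in iPSCs than on day 6 (-1.05). That call of Dvl3 was lost on rescaling to the same upper quartile (-0.95) and with a pseudocount of 5 (-0.59).

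Feedback targets, which β-catenin activates in many cell types and whose products restrain the pathway, did not pass the rule between MEFs, day 3 and day 6. There 4 of 5 were compared and Rnf43 stayed under 1 FPKM. Few rows of the whole table passed in those comparisons, at most 0.77% higher and at most 0.584% lower. Axin2, a scaffold gene, was at 1.31 FPKM in MEFs, 1.11 on day 3, 1.57 on day 6 and 2.10 in iPSCs. Its difference from MEFs was -0.13 on day 3, 0.16 on day 6 and 0.42 in iPSCs. Znrf3, a ubiquitin ligase gene whose product removes Frizzled from the membrane, was at 2.50 FPKM in MEFs, 2.49 on day 3, 2.76 on day 6 and 2.55 in iPSCs, and its relative Rnf43 at 0.304 FPKM in MEFs, 0.153 on day 3, 0.203 on day 6 and 1.80 in iPSCs. The genes of the Dishevelled-binding proteins were at 2.90 FPKM in MEFs, 2.63 on day 3, 2.88 on day 6 and 0.531 in iPSCs for Nkd1 and between 1.23 and 1.34 FPKM for Nkd2. In iPSCs against MEFs Rnf43 was higher (1.10), Nkd1 lower (-1.35) and the other 3 within the rule, where 21.1% of all rows were higher and 25% lower. The calls of Rnf43 and Nkd1 were both lost with a pseudocount of 5 and with a minimum of 5 FPKM. The levels of all 5 feedback targets were low, where the scale compresses differences.

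**Figure D4:**
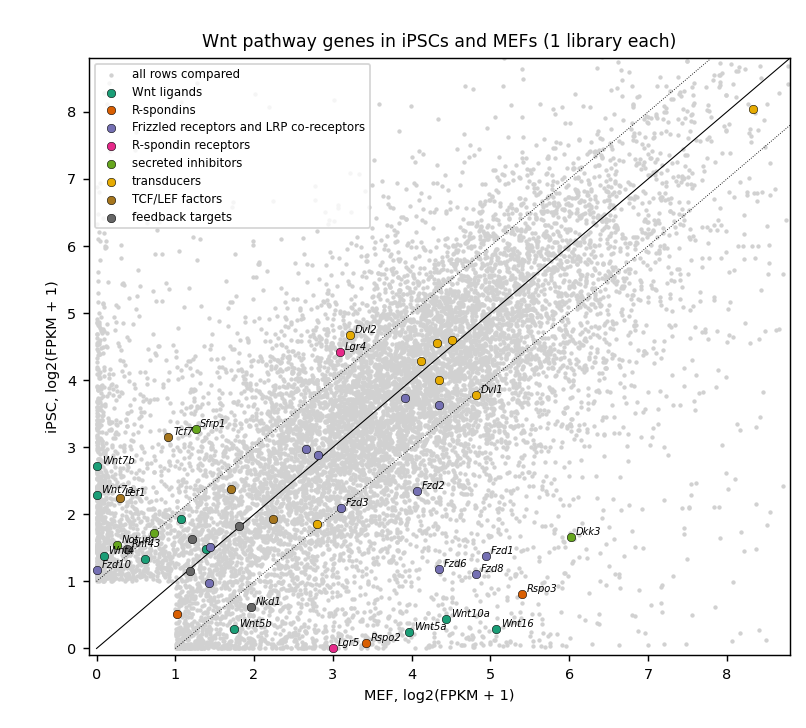
Level in iPSCs (vertical axis) and MEFs (horizontal axis), both as log2(FPKM + 1), for members compared, coloured by role, over all rows compared in grey, with rows beyond the axes not drawn. Rspo3, Dkk3, Wnt16 and Fzd1 lie far below the line of equal levels, Ctnnb1 near it, and Wnt7b, Wnt7a, Tcf7, Lef1 and Sfrp1 above it.

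The 15 members called lower kept from 0.0560% (Lgr5) to 46.7% (Dvl1) of their MEF level in iPSCs, with a median of 4.30%. They were selected as lower in iPSCs, so a reduced part follows from the selection. The 7 fibroblast markers kept 0.474% to 5.58%, with a median of 1.48%. The part of fibroblast transcripts in the remaining iPSC levels of Wnt16 (0.685% of the MEF level), Rspo2 (0.618%), Wnt5a (1.24%), Wnt10a (1.74%) and Rspo3 (1.81%) was not tested. Sums over markers of other cell types rested on single genes in most cases. The sum over 3 primitive streak and mesoderm markers was 2.64 FPKM in iPSCs and 0.0489 FPKM in MEFs, and that over 2 endoderm markers 11.2 FPKM in iPSCs and 0.251 FPKM in MEFs. The first was mostly Eomes (2.41 FPKM in iPSCs) and the second mostly Gata4 (8.74 FPKM in iPSCs). For 4 endothelial markers it was 0.423 FPKM in MEFs, 1.31 on day 3, 2.15 on day 6 and 29.0 in iPSCs. In iPSCs Pecam1, which mouse pluripotent cells also express, gave 26.2 FPKM, and Tek gave 1.22 FPKM on day 3 and 2.06 on day 6, whereas Cdh5 and Kdr were at most at 0.202 FPKM in any library. The sum over 4 macrophage markers was 66.6 FPKM in MEFs, 47.8 on day 3, 52.7 on day 6 and 12.7 in iPSCs. Lyz2 made up most of it in MEFs (52.9 FPKM) and induced cells and was at 0.0298 FPKM in iPSCs, while Cd68 was at 11.9 FPKM in iPSCs against 8.45 in MEFs. The sum over 2 neural markers was 17.0 FPKM in MEFs, 18.1 on day 3, 18.1 on day 6 and 5.51 in iPSCs, nearly all of it Nes, and Pax6 was at 0.638 FPKM in iPSCs against 0.0982 in MEFs. Their part in the differences was not tested.

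Further genes of the pathway were counted in 7 lists. Between MEFs, day 3 and day 6, where at most 0.77% of all rows were higher and at most 0.584% lower, 1 of their 75 genes passed the rule. This was Klf2, a pluripotency factor gene that Tcf7l1 represses in mouse embryonic stem cells, at 28.9 FPKM in MEFs, 25.1 on day 3, 10.2 on day 6 and 14.2 in iPSCs. Among 11 genes for ligand secretion and co-receptors, 1 was called higher and 6 lower for iPSCs against MEFs (median -1.13), beside 21.1% and 25% of all rows. Wls, which carries Wnt proteins to the cell surface, was at 342 FPKM in MEFs, 332 on day 3, 280.0 on day 6 and 9.93 in iPSCs. Porcn, the enzyme gene for the Wnt lipid, was at 2.51 FPKM in MEFs, 2.67 on day 3, 3.16 on day 6 and 20.1 in iPSCs, opposite to Wls. Reck, which takes part in Wnt7 signalling, was at 2.20 FPKM in iPSCs against 31.3 in MEFs, and the glypican gene Gpc4 at 7.02 FPKM in iPSCs against 50.6 in MEFs.

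Of 13 other β-catenin target genes compared, 3 were called higher and 7 lower for iPSCs against MEFs, with a median of -2.22, beside 21.1% and 25% of all rows. The list held 17 genes, and 13 had a row. Many of them also answer to other pathways. The 3 higher were Ascl2, at 4.89 FPKM in iPSCs against 0.0264 in MEFs, Ephb3, at 11.3 in iPSCs against 2.01 in MEFs, and Tnfrsf19, at 2.09 in iPSCs against 0.00907 in MEFs. Wisp1 was at 87.4 FPKM in MEFs, 90.7 on day 3, 69.8 on day 6 and 1.95 in iPSCs. The adhesion gene Cd44 was at 70.5 FPKM in MEFs, 95.2 on day 3, 122 on day 6 and 2.65 in iPSCs, and the AP-1 gene Fosl1 at 7.48 FPKM in MEFs, 11.02 on day 3, 14.9 on day 6 and 0.0651 in iPSCs. Myc, which is also an induced factor, was at 16.8 FPKM in MEFs, 21.2 on day 3, 22.8 on day 6 and 1.83 in iPSCs, and reads of the induced copy are not separated. Ccnd1, the cyclin D1 gene, was singled out after its values were seen, at 82.4 FPKM in MEFs, 100.1 on day 3, 160.1 on day 6 and 15.1 in iPSCs, and its difference of 0.95 on day 6 against MEFs did not pass the rule. On day 6 against MEFs the 10 genes compared had a median of 0.25, from -0.66 (Bmp4) to 0.95 (Ccnd1).

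Of 5 genes that Tcf7l1 is known to repress in mouse embryonic stem cells, 4 were higher in iPSCs than in MEFs. Over all rows 21.1% were higher. The list was taken from genes of pluripotent cells, and Nanog and Esrrb are also among the 7 pluripotency markers above. The count therefore does not inform on Tcf7l1. Nanog, a core pluripotency factor gene, was at 0.398 FPKM in MEFs, 0.270 on day 3, 0.241 on day 6 and 171 in iPSCs. Esrrb was at 0.0629 FPKM in MEFs, 0.0415 on day 3, 0.0633 on day 6 and 84.4 in iPSCs, and Tfcp2l1 at 1.25 FPKM in MEFs, 1.51 on day 3, 1.43 on day 6 and 40.4 in iPSCs. Nr5a2 was at 7.46 FPKM in iPSCs and at most 0.0168 in the others. These 4 were within the rule or under 1 FPKM in the comparisons between MEFs, day 3 and day 6. Tcf7l1 was at 2.28 FPKM in MEFs, 8.12 on day 3, 8.15 on day 6 and 4.21 in iPSCs. Its part in these levels was not tested.

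Genes of the destruction complex and its regulators were 3 higher and 1 lower of 18 in iPSCs against MEFs, where 21.1% of all rows were higher and 25% lower. The Dishevelled-binding gene Dact2 was at 6.31 FPKM in iPSCs against 0.0755 in MEFs, the tankyrase gene Tnks2 at 119 in iPSCs against 54.1 in MEFs, and the phosphatase subunit gene Ppp2r5a at 27.2 in iPSCs against 12.7 in MEFs. The casein kinase gene Csnk1g3 was lower, at 4.16 FPKM in iPSCs against 11.8 in MEFs. Of 12 β-catenin cofactors and Groucho corepressors, 3 were higher and 3 lower, shares near the 21.1% and 25% of all rows. The corepressor genes Tle4, at 16.5 FPKM in iPSCs against 2.59 in MEFs, and Tle3, at 35.02 in iPSCs against 10.5 in MEFs, were higher. Tle2, at 1.56 FPKM in iPSCs against 5.80 in MEFs, and the cofactor gene Pygo1, at 0.524 in iPSCs against 4.39 in MEFs, were lower. Of 5 other inhibitor genes compared, 0 were higher and 2 lower, beside the same shares of all rows, with a median of 0.27. The lower genes were Igfbp4, at 25.6 FPKM in iPSCs against 233 in MEFs, and Tpbg, at 2.29 in iPSCs against 20.4 in MEFs. Apcdd1, at 1.71 FPKM in iPSCs against 0.423 in MEFs, and Frzb, at 1.96 in iPSCs against 1.10 in MEFs, differed upward within the rule.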

How the data were processed

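Long RNA libraries of 4 stages were analysed, 1 per stage. The 4 small RNA samples were not analysed here. The deposited table holds FPKM per gene, normalised by the authors; the unit comes from the file header and values. Ribosomal RNA was removed, per the labels' protocols. The submitters' processing notes name HISAT2, Cufflinks and mm9, without roles. Versions, annotation and strand setting are not stated there. FPKM is relative to the other RNAs of a library, and depth is unknown, so no counting interval is given.

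Members were selected by symbol. Differences of log2(FPKM + 1) and the rule of size were computed over all 17922 rows (Python 3.11.15, pandas 2.3.3). The code of the rule was run on simulated data that held only large changes in well expressed rows. That run does not inform on calls near the limits of the rule. Full values are given for members past the rule that reach 5 FPKM and for those leading a role. List genes are named where past the rule without iPSCs or among the 4 largest differences of iPSCs against MEFs. Ccnd1, Bmp4 and the 3 β-catenin target genes called higher in iPSCs are named as well. The members and lists were chosen with earlier results of these data known. RefSeq spans on GRCm38.p6 overlap another gene for 27 members, for 7 of them a gene with a row, and reads of such pairs may not be separated. Alternatives changed the pseudocount, the minimum, the threshold and the scaling.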

Additional observations from a re-analysis of the deposited data

How the results depend on the processing

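No paired analysis was possible because a stage had 1 library only. For the same reason no replicate was left out, and no call has a replicate check. Low levels limit the calls, most of all on day 3. Beyond how each alternative is built, causes of the shifts were not tested. Of 80 counts of members under the alternatives, 59 stayed within 1.5 times the value reported, including all 30 under the 3 rescalings. The 59 also include 10 counts made without the minimum of 1 FPKM, which could not change. A difference of at least 1 on this scale already puts the higher value at 1 FPKM or more. Of 35 medians 34 stayed, and that of iPSCs against MEFs was -0.83 among members reaching 5 FPKM. Rescaling to the same upper quartile put the median of all rows at 0.13 for iPSCs against MEFs, in place of -0.05, with 3226 rows higher and 2826 lower in place of 2724 and 3232. Rescaling to the same total gave 110 rows higher and 48 lower on day 6 against MEFs, in place of 91 and 69. In iPSCs against MEFs each rescaling ended the calls of Dvl1 and Fzd3 and added Sfrp2.

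With a pseudocount of 0.1, 4 members were higher and 3 lower on day 6 against MEFs, and 3 higher and 3 lower on day 6 against day 3. With a pseudocount of 5, 0 were higher on day 3 against MEFs, 0 higher on day 6 against MEFs, 0 higher and 0 lower on day 6 against day 3, 5 higher in iPSCs against MEFs and 3 higher in iPSCs against day 6. With a minimum of 5 FPKM, 1 was higher on day 6 against MEFs, 0 higher on day 6 against day 3, 5 higher in iPSCs against MEFs and 4 higher in iPSCs against day 6. With a log2 difference of at least 2, 0 were higher on day 3 against MEFs, 1 higher and 0 lower on day 6 against MEFs, 0 higher and 0 lower on day 6 against day 3, 4 higher in iPSCs against MEFs and 2 higher in iPSCs against day 6.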

Other observations

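The planar polarity branch, which acts without β-catenin, held 10 genes with a row, of which 9 were compared in iPSCs against MEFs. Of these 3 were higher and 2 lower, where 21.1% of all rows were higher and 25% lower. The atypical cadherin gene Celsr1 was at 0.0196 FPKM in MEFs, 0.0153 on day 3, 0.0991 on day 6 and 4.48 in iPSCs. The core polarity gene Vangl2 was at 1.63 FPKM in MEFs, 1.61 on day 3, 1.69 on day 6 and 6.45 in iPSCs. Celsr2 was also higher in iPSCs, at 1.49 FPKM against 0.201 in MEFs, and Prickle2 was lower, at 0.263 FPKM in iPSCs against 4.002 in MEFs. Of the 7 genes compared on day 3 and day 6 against MEFs, 0 passed the rule, where at most 0.77% of all rows were higher and at most 0.584% lower.

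By the library of the highest value, 14 members stood highest in MEFs, 10 on day 3, 12 on day 6 and 25 in iPSCs. By the lowest value the numbers were 11 in MEFs, 11 on day 3, 9 on day 6 and 30 in iPSCs. These numbers include the 12 members that reached 1 FPKM in no library. The same numbers over all rows were not taken, so nothing particular to the pathway can be read from them.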
